A study of Mus musculus with 4 samples.

Results

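MiR-423, miR-320 and miR-484 are small RNAs that recur in lists of miRNAs from extracellular vesicles and blood. Every mature miRNA of these 3 hairpins was taken by name from a table of 389 mature miRNAs, which gave 5 members: mmu-miR-423-5p, mmu-miR-423-3p, mmu-miR-320-3p, mmu-miR-320-5p and mmu-miR-484. A miRNA is cut from a folded hairpin, and either side of the stem, the 5p or the 3p arm, can be loaded into an Argonaute protein, which then pairs its seed, the bases 2 to 8, with messenger RNAs. Most hairpins are first released from their transcript by the nuclease Drosha. The miR-320 and miR-484 hairpins bypass that step, since they are made as short capped transcripts that Dicer cuts directly.

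Small RNA was sequenced from exosome-enriched preparations of the culture supernatant of C8-D1A, an established wild-type mouse astrocyte line of cerebellar origin grown with fetal bovine serum. The comparison asks how heat stress alters the miRNAs these cells release. The 2 control libraries came from cells kept at 37 °C, for 8 h per the labels, and the 2 heat stress libraries came from cells exposed for 2 h to 42 °C, with 6 h of rewarming at 37 °C before collection. The study's design names 2 biological replicates per group. Values are the deposited normalized signal, and within each library every value was a whole multiple of 1 step, the smallest value above 0. The libraries held 43675 and 95020 steps (control 1 and 2) and 100933 and 63338 steps (heat stress 1 and 2). If a step is worth 1 read, a listed 0 allows up to 3 steps, which is a signal of 4.06 and 2.35 in the control libraries and of 2.37 and 3.00 in the heat stress libraries.

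The members' abundance in these vesicles differed widely. MiR-423-5p, a widely expressed miRNA known from many tissues and from plasma, had the 8th largest mean signal of the 389 miRNAs (1689). MiR-320-3p followed directly in 9th place (1659), miR-423-3p was in 25th place (571) and miR-484, which is known to target the mitochondrial fission factor Fis1, was in 56th place (133). MiR-320-5p was in 294th place with a mean of 1.38, tied with 2 other miRNAs, so the description as abundant in vesicles holds for 4 of the 5 members and not for this arm. The 3 largest means belonged to miR-148a-3p (18722), let-7c-5p (8164) and miR-10b-5p (3350). Together the 5 members made up 7.24% and 4.58% of the total signal of control libraries 1 and 2, and 7.52% and 4.71% of heat stress libraries 2 and 1. The groups overlapped in this share, and the larger values were those of control library 1 and heat stress library 2, the libraries with the fewest steps.

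**Figure D1:**
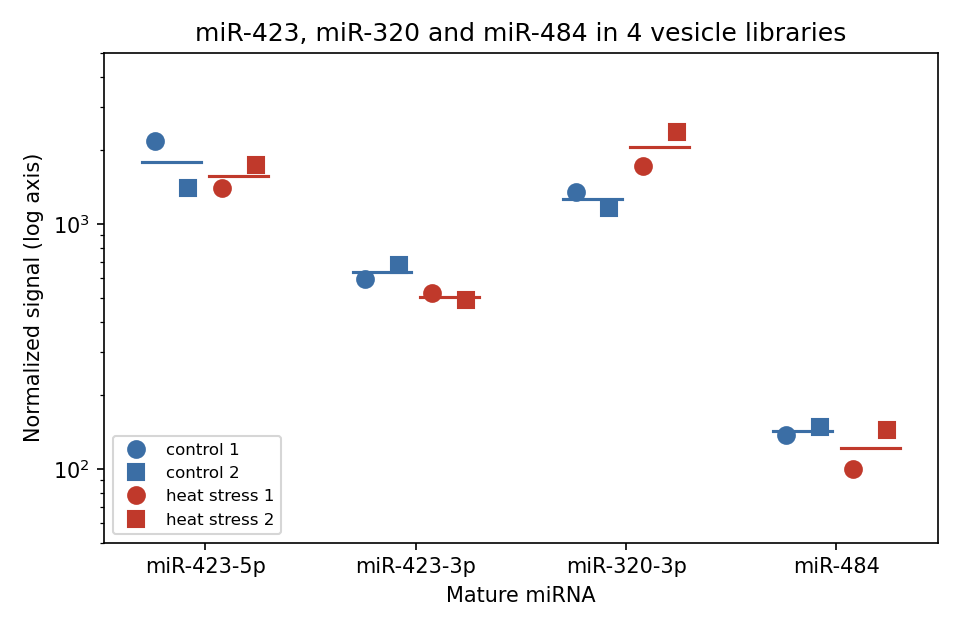
Normalized signal (log axis) of the 4 abundant members in the 2 control libraries (blue) and the 2 heat stress libraries (red), with circles for replicate 1, squares for replicate 2 and bars for group means. Both heat stress libraries lie above both control libraries for miR-320-3p (1724 and 2389 against 1355 and 1167) and below them for miR-423-3p, while the groups overlap for miR-423-5p and miR-484.

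The mature sequences of 3 members were found in the RefSeq miRNA table (build GRCm38.p6), which matched 325 of the 389 listed miRNAs by name. They are shown because the arms of miR-423 are compared with each other and because bases 2 to 8, in capitals, decide what each miRNA pairs with.
mmu-miR-423-5p: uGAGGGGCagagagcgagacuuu
mmu-miR-423-3p: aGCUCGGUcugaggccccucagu
mmu-miR-484: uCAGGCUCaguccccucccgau
No entry was matched for mmu-miR-320-3p and mmu-miR-320-5p. The 3 seeds all differ, so each of these members pairs with targets through a seed of its own. MiR-6921-5p was the 1 other RefSeq entry with the seed of miR-423-5p, and it was not among the 389 listed. The seeds of miR-423-3p and miR-484 had 0 other entries.

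All 3 sequences held a larger share of G and C than the median of the matched miRNAs. G and C made up 65.2% of the 23 bases of miR-423-3p, 63.6% of the 22 bases of miR-484 and 56.5% of the 23 bases of miR-423-5p, against a median of 50% over the 325 matched miRNAs. Of those 325, 37 had a G and C share at least as high as miR-423-3p and 120 at least as high as miR-423-5p. The arms of miR-423 differed in their bases. The 5p arm held 10 G and 3 C, whereas the 3p arm held 7 G and 8 C. MiR-423-5p and miR-484 begin with U, as did 41.5% of the matched miRNAs, and miR-423-3p begins with A, as did 27.4%.

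Short motifs are known from work on the sorting of miRNAs into vesicles, among them GGAG, CCCU and GGCU, and they were searched on the RNA strand only. CCCU occurred from base 16 of miR-423-3p and from base 13 of miR-484, and in 9.23% of the 325 matched miRNAs. GGCU occurred from base 4 of miR-484, inside its seed, and in 16.9% of the matched miRNAs. GGAG, present in 17.5% of them, was in 0 of the 3 members, and miR-423-5p, the member with the largest mean over the 4 libraries, held 0 of the 3 motifs.

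The Mir423 hairpin lies on the minus strand at chr11:77078064-77078172 (GRCm38.p6). It sits in an intron of Nsrp1, a gene of the same strand that encodes a splicing regulator, in both annotated Nsrp1 transcripts that span it (GENCODE M21, GRCm38). The 109-base hairpin is shown with the 5p and then the 3p arm in capitals, since both arms were sequenced in quantity.
Mir423 hairpin: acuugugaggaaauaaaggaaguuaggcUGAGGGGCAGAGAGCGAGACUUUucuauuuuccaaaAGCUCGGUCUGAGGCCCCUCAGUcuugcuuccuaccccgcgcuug
The arms are separated by 13 bases. In the fold of lowest predicted energy (-51.9 kcal/mol, RNAfold) 17 base pairs joined the arms, and all 7 seed bases of miR-423-5p paired, with bases 14 to 20 of miR-423-3p. The Mir320 hairpin lies on the plus strand at chr14:70443510-70443591, in 0 annotated genes of other names, and 63 bases from the 5′ end of Polr3d, an RNA polymerase III subunit gene of the opposite strand. The Mir484 hairpin lies on the plus strand at chr16:14159626-14159692, inside an exon of 1 of 3 annotated transcripts of Marf1, a gene of the opposite strand, and 3583 bases before Nde1, the nearest protein-coding gene of its own strand.

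Both arms of miR-423 were abundant in all 4 libraries, and the 5p arm was the larger in each. In control library 1 the signal was 2195 for miR-423-5p and 597 for miR-423-3p, and in control library 2 it was 1409 and 677. In heat stress library 1 it was 1408 and 522, and in heat stress library 2 it was 1746 and 487. The 5p arm was therefore 3.67 and 2.08 times the 3p arm in the control libraries and 2.70 and 3.58 times in the heat stress libraries. The highest and the lowest ratio both came from control libraries, and both heat stress ratios lay between them. Control library 1 and heat stress library 2, which held the fewest steps in all (43675 and 63338), had the larger ratios. A part of sequencing depth in this was not tested.

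As a share of the signal of both arms, miR-423-5p made up 78.6% of control library 1 (95% Clopper-Pearson interval 76.8 to 80.4, from 2061 steps) and 67.5% of control library 2 (65.7 to 69.3, from 2667 steps). The shares were 72.9% in heat stress library 1 (71.1 to 74.7, from 2443 steps) and 78.2% in heat stress library 2 (76.4 to 79.9, from 2231 steps). These intervals take each step as 1 read and cover counting error only, and a share within 1 library does not depend on how the library was scaled. The intervals of the 2 control libraries did not meet, and neither did those of the 2 heat stress libraries, so replicates differed by more than counting error if a step is worth 1 read, which the sources used here do not state. The group means were 73.1% ± 7.83 (SD, n = 2) in control and 75.6% ± 3.70 (SD, n = 2) in heat stress. The difference of 2.49 percentage points was smaller than the SD of either group (two-sided exact permutation p = 1, where 0.333 is the smallest p that 2 against 2 libraries allow). Without control library 2 the difference was -3.05 points and without heat stress library 2 it was -0.12, so its direction rested on these libraries.

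**Figure D2:**
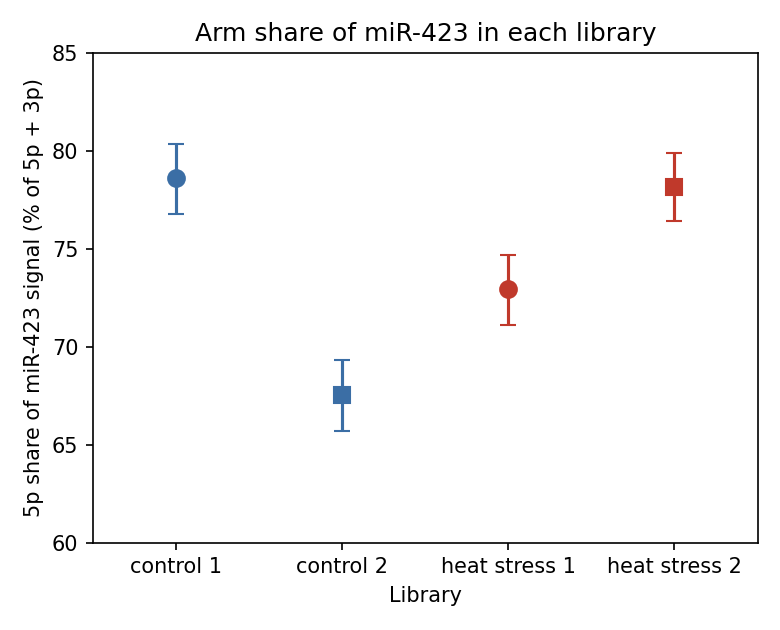
Share of miR-423-5p in the summed signal of both miR-423 arms (percent, on an axis that does not start at 0) in each control (blue) and heat stress (red) library, with 95% Clopper-Pearson intervals as bars. The shares are 78.6%, 67.5%, 72.9% and 78.2%, and the control libraries lie at both ends of the range.

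A limma fit of the log2 ratio of the 5p to the 3p arm was made over the 56 hairpins whose arms both had a mean signal of at least 1. The log2 ratio of miR-423 was 1.88 and 1.06 in the control libraries and 1.43 and 1.84 in the heat stress libraries, and the groups overlapped. The fitted change from control to heat stress was 0.17 (SE 1.74, 95% interval -3.61 to 3.95, limma adjusted p = 0.941). An arm ratio was called when its change exceeded 2-fold and its unadjusted p was under 0.05. That rule called 7.14% of the 56 hairpins in either direction, 4 in all, and miR-423 was not among them. Its fitted change was -0.24 without control library 2 and -0.04 without heat stress library 2. The median change over the 56 was -0.26, and 21.4% of them had groups that did not overlap. The interval for miR-423 spans changes of more than 10-fold either way, and with a pseudocount of 10 in place of 1 its SE was 0.86.

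MiR-423 stood out from the other hairpins by the size of its smaller arm. Of 67 hairpins with both arms listed, it had the 4th largest summed mean and the largest mean of the lesser arm. The hairpins of the 3 larger sums each gave nearly all their signal from 1 arm: the lesser arm held 0.0160% of the mean signal of miR-148a, 0.0482% of miR-10a and 0.0221% of let-7b. For miR-423 the lesser arm, 3p, held 25.3%. Over the 27 hairpins with a summed mean of at least 100 the median was 1.94%, and 5 of them, miR-423 included, held at least 25.3%. Of the 12 hairpins with at least 10 steps of both arms in every library, 3 had a narrower range of the 5p share over the 4 libraries than the 11.1 points of miR-423, and the median range was 15.7 points.

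MiR-320, in 5th place by summed mean, was the opposite case. The 5p arm had a signal of 5.53 (7 steps) in heat stress library 1, and the other 3 libraries list it at 0. This 1 library is the source of its whole signal, and the value lies only a little above the limit of 4.06 that a 0 allows in control library 1. As a share of both arms, miR-320-5p was 0.320% (95% Clopper-Pearson interval 0.129 to 0.658) in heat stress library 1. The 0 in the other libraries allows a share of up to 0.300% and 0.201% in control libraries 1 and 2 and of up to 0.126% in heat stress library 2. The lower end of the interval lies below the limits of both control libraries, so a difference from them was not detectable at this depth. The limit of heat stress library 2 (0.126%) lay just below that lower end (0.129%), but that library's own Clopper-Pearson interval reached 0.154%.

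**Figure D3:**
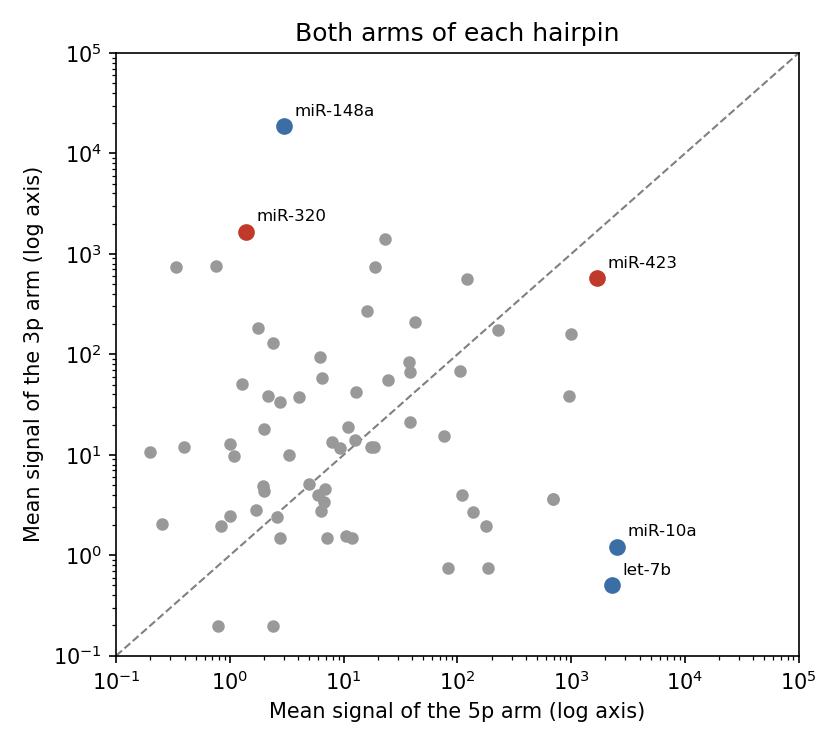
Mean signal over the 4 libraries of the 5p arm (horizontal log axis) and the 3p arm (vertical log axis) of each of the 67 hairpins with both arms listed, with equality as a dashed line. MiR-423 (1689 and 571) lies near the line at high signal in both arms, while miR-320, miR-148a, miR-10a and let-7b lie far from it.

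None of the 5 members passed the threshold for a change after heat stress, which asked for a change above 2-fold and an unadjusted p under 0.05 in a limma fit of log2(signal + 1) over the 313 miRNAs with a mean of at least 1. That rule called 4.47% of the 313 as higher (14) and 2.88% as lower (9), 23 had an unadjusted p under 0.05, and 0 had an adjusted p under 0.05. Leaving out 1 library moved these counts to between 10 and 39 higher (39 without heat stress library 1, 37 without heat stress library 2) and between 3 and 27 lower (27 without control library 1, 24 without control library 2, 3 without heat stress library 1). Among the members, miR-320-3p was the 1 whose heat stress libraries both lay above both control libraries, as 16% of the 313 did. MiR-423-3p was the 1 whose heat stress libraries both lay below, as 11.5% of the 313 did. With 5 members, 1 in each direction is near these backgrounds.

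MiR-320-3p, the abundant arm of its hairpin, had a signal of 1355 and 1167 in the control libraries and of 1724 and 2389 in the heat stress libraries. Heat stress library 2 was the highest and control library 2 the lowest, and the groups did not overlap. The mean was 1261 ± 133 (SD, n = 2) in control and 2057 ± 470.1 (SD, n = 2) in heat stress, a ratio of 1.63. The fitted log2 change was 0.69 (SE 0.85, 95% interval -1.49 to 2.87, limma adjusted p = 0.808). As a share of the library total, miR-320-3p held 2.29% and 1.57% in control and 2.16% and 3.77% in heat stress. On this scale control library 1 lay above heat stress library 1, so the groups overlapped (two-sided exact permutation p = 0.667). With the 5 largest miRNAs left out of the total the groups did not overlap, and the difference was 2.18 percentage points in place of 1.04 (exact permutation p = 0.333). On the full total, the difference was 0.232 points without heat stress library 2 and 1.84 points without heat stress library 1. Its place in the order of each library was 10th and 11th in control and 8th and 6th in heat stress.

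MiR-423-3p was the steadiest member. Its signal was 597 and 677 in the control libraries and 522 and 487 in the heat stress libraries. The heat stress values were both the lower ones, with means of 637 ± 56.6 (SD, n = 2) and 505 ± 24.7 (SD, n = 2). The fitted log2 change was -0.33 (SE 0.83, 95% interval -2.48 to 1.81, limma adjusted p = 0.971). Its share of the library total was 1.01% and 0.911% in control and 0.655% and 0.769% in heat stress. The groups did not overlap on this scale either, and the exact permutation p of 0.333 is the smallest that 2 against 2 libraries allow. Of 60 distinct miRNAs with a mean of at least 100, miR-423-3p had the 5th smallest SD of log2 signal over the 4 libraries (0.21, against a median of 0.46).

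MiR-423-5p varied more than its partner arm, and mostly between the control libraries. Its signal of 2195 in control library 1 was the highest of the 4, whereas the 1409 of control library 2 was nearly equal to the 1408 of heat stress library 1, with 1746 in heat stress library 2. The control libraries differed 1.56-fold and the heat stress libraries 1.24-fold, while for miR-423-3p these replicate differences were 1.13-fold and 1.07-fold. The group means were 1802 ± 555 (SD, n = 2) and 1577 ± 239 (SD, n = 2). The fitted log2 change was -0.17 (SE 0.86, 95% interval -2.38 to 2.05, limma adjusted p = 0.983). Without control library 1 it was 0.15, so the direction rested on that library. MiR-423-5p held 3.71% and 1.90% of the total in control and 1.77% and 2.75% in heat stress, with overlap (exact permutation p = 0.667).

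MiR-484 had a signal of 138 and 149 in the control libraries and of 99.6 and 144 in the heat stress libraries. Heat stress library 1 was low and the other 3 libraries lay close together, so the groups overlapped. The means were 143 ± 7.40 (SD, n = 2) and 122 ± 31.5 (SD, n = 2). The fitted log2 change was -0.26 (SE 0.85, 95% interval -2.44 to 1.93, limma adjusted p = 0.981), and without heat stress library 1 it was 0.0082. MiR-484 held 0.234% and 0.200% of the total in control and 0.125% and 0.227% in heat stress (exact permutation p = 0.667). For miR-320-5p, with signal in 1 library only, the fitted log2 change depended on the pseudocount, at 2.91 with 0.1 and 0.32 with 10. With the pseudocount of 1 it was 1.35 (SE 1.20, limma adjusted p = 0.686). It was 0 without heat stress library 1, and 2.71 and past the threshold without heat stress library 2.

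Over all 313 miRNAs the median log2 change was 0.12 with the deposited scaling and 0.02 with scaling to library totals. Relative to that median, the change was 0.57 for miR-320-3p, -0.46 for miR-423-3p, -0.29 for miR-423-5p and -0.38 for miR-484 with the deposited scaling. Scaling moves all miRNAs of a library nearly alike, so values relative to the median hardly depend on it. The SE of an abundant member depended on how the spread was pooled over miRNAs. When the variance prior was allowed to follow the mean signal, an alternative chosen after seeing the data, the SE was 0.45 for both miR-423-5p and miR-320-3p, and the limma adjusted p of miR-320-3p was 0.875 (0.815 to 0.951 over its alternatives with all libraries).

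Ratios between members within a library do not depend on scaling. MiR-320-3p was 0.617 and 0.828 times miR-423-5p in the control libraries and 1.22 and 1.37 times in the heat stress libraries. The neighbours in 8th and 9th place thus had the opposite order in the 2 groups, with miR-423-5p ahead in both control libraries and miR-320-3p ahead in both heat stress libraries. Measured against miR-423-5p on the log2(signal + 1) scale, 23.1% of the other 312 tested miRNAs had both heat stress libraries above both control libraries. The ratios between members were not tested. MiR-320-3p was 2.27 and 1.72 times miR-423-3p in control and 3.30 and 4.90 times in heat stress, again without overlap, and 34.9% of the other 312 miRNAs lay higher in this way against miR-423-3p. Against miR-484, which shares its route around Drosha, it was 9.80 and 7.85 times in control and 17.3 and 16.6 times in heat stress, also without overlap, and 25% of the other 312 lay higher in this way against miR-484. The ratio of miR-423-3p to miR-484 was 4.32 and 4.56 in control and 5.25 and 3.38 in heat stress, with overlap.

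The members did not share 1 profile over the 4 libraries. Likeness was measured as the Euclidean distance between profiles of log2(signal + 1), each centred on its own mean, against 158 other miRNAs with a mean of at least 10. The miRNAs nearest to miR-320-3p were let-7d-5p (distance 0.146), miR-125b-5p (0.168) and miR-100-5p (0.203), where the median distance was 1.47. MiR-125b-5p had a signal of 2134 and 1612 in control and 2402 and 3254 in heat stress, the same order of libraries as miR-320-3p. Nearest to miR-423-5p were miR-328-3p (0.194), miR-29a-3p (0.274) and miR-103-3p (0.307). MiR-328-3p was at 954 and 554 in control and 635 and 824 in heat stress, with control library 1 the highest as for miR-423-5p.

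Nearest to miR-423-3p were miR-128-3p (0.171), miR-22-5p (0.284) and miR-23a-5p (0.351). MiR-128-3p, a miRNA known for its abundance in neurons, was at 531 and 540 in control and 465 and 382 in heat stress, both heat stress values being the lower ones. Nearest to miR-484 were miR-378c (0.192), miR-30a-5p (0.200) and miR-22-5p (0.279). MiR-423-5p was 21st among the 158 for likeness to its own partner arm miR-423-3p (0.670), and miR-484 was 7th (0.454) although it comes from another chromosome. MiR-320-3p was 69th (1.14). Over 4 libraries these distances are a description.

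In the order of mean signal, miR-423-5p stood between let-7b-5p (2264) and miR-320-3p, and miR-320-3p was followed by miR-615-3p (1396). MiR-615-3p was at 1565 and 1220 in control and 1464 and 1335 in heat stress, a range that overlaps those of miR-423-5p and miR-320-3p, so the places 8 to 10 were not separated beyond the spread of the libraries. MiR-423-3p stood between miR-1198-5p (581) and let-7d-3p (559). MiR-484 stood between miR-5126 (135) and miR-27b-3p (131). In both cases the 3 neighbours overlapped.

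Hairpins taken to bypass Drosha, as short capped transcripts or as introns that splicing releases, were listed as miR-320, miR-484, miR-877, miR-702 and miR-1224. Of these 5 hairpins 4 had rows, 6 mature miRNAs in all, and 0 of the 6 passed the threshold in either direction, where 4.47% of the 313 passed as higher and 2.88% as lower. With 6 miRNAs, 0 is near these backgrounds. Their median log2 change was 0.22, against 0.12 over all 313 and -1.44 over the 3 of the list that are not members. When a group listed at 0 in both libraries was set to the limit that a 0 allows (2 of the 6, miR-320-5p and miR-702-5p), the median was -0.49, against -0.01 over all 313, so its sign rested on these low miRNAs. The members miR-320-3p and miR-484 accounted for nearly all the signal. The intron-derived miR-877-5p and miR-877-3p had means of 12.5 and 14.1, miR-702-5p of 2.57 and the member miR-320-5p of 1.38. MiR-877-5p was at 10.8 and 31.3 in control and at 0 and 8.01 in heat stress, where the 0 allows up to 2.37. MiR-877-3p was at 9.48 and 32.9 in control and at 11.1 and 3.00 in heat stress, and its groups overlapped.

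A list of 21 miRNAs often abundant in vesicles and blood included 4 of the members. Of the 21, 20 had rows and were tested, 1 passed the threshold as higher and 0 as lower (4.47% and 2.88% of the 313 did), and their median log2 change was 0.15 (0.08 with groups at 0 set to their limit). Both heat stress libraries lay above both control libraries for 6 of the 20 and below for 1, which was miR-423-3p, where the backgrounds over all 313 were 16% and 11.5%. MiR-320-3p was among the 6, with miR-26a-5p, miR-25-3p, miR-92a-3p, miR-191-5p and miR-16-5p, and the last of these was the 1 past the threshold. The control libraries both list miR-16-5p at 0, and its heat stress signal was 19.0 and 8.01. Without the 4 members the median of the list was 0.19. MiR-486a-5p and miR-486b-5p (mean 699 each) had identical values in every library, although both are counted among the 20. Among the list let-7b-5p alone had a larger mean than miR-423-5p and miR-320-3p.

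The labelled cell type was checked against marker miRNAs. Of 4 markers of astrocytes and neural cells, 3 had rows, with a summed signal of 228 and 24.3 in control and 168 and 84.1 in heat stress. The most abundant, miR-9-5p, was at 122 and 0 in control and 138 and 48.0 in heat stress, so a defining neural marker was at 0 in control library 2, and each library's summed level lay below its miR-423-3p. All 4 neuron markers had rows, summing to 589 and 541 in control and 486 and 415 in heat stress, nearly all of it miR-128-3p, while the defining miR-124-3p was at 4.06 and 0 in control and 0 and 3.00 in heat stress. Of 3 oligodendrocyte markers 1 had a row, with sums of 0, 0, 1.58 and 1.00, and of 4 microglia and blood markers 2 had rows, with sums of 24.4 and 14.9 in control and 26.9 and 24.0 in heat stress.

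Markers that can also come with culture serum were present beside the members. The 3 erythroid markers summed to 951 and 577 in control and 793 and 569 in heat stress, nearly all miR-486a-5p, while miR-451a, a defining marker of red cells, was at 17.6 and 23.5 in control and 15.0 and 37.0 in heat stress. MiR-122-5p of liver was at 90.8 and 33.6 in control and 20.5 and 76.1 in heat stress. Of 3 muscle markers 2 had rows, with sums of 39.3 and 108 in control and 22.1 and 27.0 in heat stress. MiR-1a-3p was the larger of these 2 in control (24.4 and 73.5, against 14.9 and 34.4 for miR-206-3p) and the smaller in heat stress (3.16 and 0, against 19.0 and 27.0). The 2 endothelial markers, nearly all miR-126a-3p, summed to 2.71 and 0 in control and 33.2 and 8.01 in heat stress. Of the 18 markers with rows 14 were tested, of which 1 passed the threshold as higher, 1 as lower and 0 with an adjusted p under 0.05, where 4.47% and 2.88% of the 313 passed. These were miR-126a-3p (log2 change 3.17, SE 1.19, limma adjusted p = 0.612) and miR-1a-3p (log2 change -4.41, SE 1.17, limma adjusted p = 0.513). Both calls were lost without any 1 of the 4 libraries, and that of miR-126a-3p also with scaling to library totals. Without 1 library the log2 change ranged from 2.23 to 4.12 for miR-126a-3p and from -5.44 to -3.39 for miR-1a-3p. With library totals that of miR-126a-3p was 3.04. The part of these cell types and of serum in the signal of miR-423, miR-320 and miR-484 was not tested.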

How the data were processed

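Per the methods, the authors removed adapters, reads under 17 nt and low-quality reads and aligned the rest with Bowtie, whereas the submitters' processing notes name FastQC and BWA, and the genome build and annotation release are not given in the sources used here. The deposited values are a normalized signal per mature miRNA and library, and all were whole multiples of 1 step (tolerance 1e-06) whose inverse equalled a median-of-ratios size factor. Columns holding the authors' comparison, a log2 fold change and a p-value per miRNA, were not used, nor was their table of differing miRNAs. Labels give controls 8 h at 37 °C. The methods give 2 h, and collect the medium of both groups after 6 h of rewarming.

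Members were found by hairpin name. Changes were fitted with limma (version 3.58.1, R version 4.3.3) on log2(signal + 1) over miRNAs with a mean of at least 1, with no term but condition, two-sided, with Benjamini-Hochberg adjustment over all miRNAs tested. A fold on this scale understates changes of low values. The fit was tested on simulated data. Shares were compared by exact permutation (scipy version 1.17.1), hairpins folded with RNAfold (version 2.7.2) and figures drawn with matplotlib (version 3.10.9). Positions come from RefSeq and GENCODE M21, which may not be the build the authors used. Members and lists were chosen with earlier results of these data known. Besides the members and lists, miRNAs were named by rule: neighbours in order of mean, the 3 largest means, the 3 nearest profiles of each member with a mean of at least 10, and the 5 hairpins with the largest summed mean. Alternatives were other pseudocounts, filters, scalings, denominators, a replicate block and leaving out each library. A mean-dependent variance prior, and counts without each library, were chosen after seeing the data.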

Additional observations from a re-analysis of the deposited data

How the results depend on the processing

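With all 4 libraries, the direction of each member's log2 change and the absence of a call held under each alternative run, as did the direction of the arm ratio, the 5p share and the shares of the total. The log2 change of miR-320-5p moved from 1.35 to 2.91 with a pseudocount of 0.1 and to 0.32 with 10. With the 5 largest miRNAs left out of the total, each share grows by construction, and the difference was -0.832 points for miR-423-5p, 0.815 for the 5 together (0.207 with the full total) and 2.18 for miR-320-3p, whose groups then did not overlap (exact permutation p = 0.333). MiR-320-5p, miR-126a-3p and miR-1a-3p could not be fitted with at least 10 steps in every library. The counts of miRNAs past the threshold moved more. From 14 higher and 9 lower, they were 2 and 5 with at least 10 steps in every library (104 tested), 14 and 2 with a pseudocount of 0.1, 10 and 17 with a pseudocount of 10, and 6 and 10 with a mean-dependent variance prior (chosen after seeing the data). Of the 2 markers past the threshold, miR-126a-3p was not past it with a pseudocount of 0.1, library totals or the mean-dependent prior. Its log2 change was then 4.94, 3.04 and 3.17, against 3.17 in the main fit. MiR-1a-3p was not past it with a pseudocount of 0.1, where its log2 change was -6.22, against -4.41 in the main fit. With the replicate block the counts were 10 and 4, and the block changed no call of a member or of these 2 markers. Across 313 miRNAs, the differences of replicate 1 minus replicate 2 had a Pearson correlation of -0.02 between the groups. Only 104 miRNAs had at least 10 steps in every library, so this value cannot decide whether replicates of 1 number share a batch.

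Leaving out 1 library leaves 1 in its group, which limma takes to vary like the other group. The counts without 1 library were also chosen after seeing the data. The higher count ranged from 10 to 39 and the lower from 3 to 27. The log2 change ranged from -0.48 to 0.15 for miR-423-5p (0.15 without control library 1), from -0.42 to -0.24 for miR-423-3p, from 0.46 to 0.93 for miR-320-3p and from -0.52 to 0.0082 for miR-484 (0.0082 without heat stress library 1). For miR-320-5p it ranged from 0 without heat stress library 1 to 2.71 without heat stress library 2, where it was past the threshold (limma adjusted p = 0.0337) on the 7 steps of 1 library. The change of the miR-423 arm ratio lay between -0.24 and 0.58, the values below 0 being -0.24 without control library 2 and -0.04 without heat stress library 2. That of the 5p share lay between -3.05 and 8.03 percentage points. The share of the total ranged from -1.45 to 0.364 points for miR-423-5p, from 0.232 to 1.84 for miR-320-3p, from -0.306 to -0.192 for miR-423-3p, from -0.0919 to 0.0106 for miR-484, from 0 to 0.00694 for miR-320-5p and from -1.20 to 1.61 for the 5 together. Values of shares without a library carry no test, and the cause of these reversals was not tested. The SE of the abundant members moved with how the spread was pooled: for miR-423-5p it was 0.86, against 0.50 with at least 10 steps in every library and 0.45 with the mean-dependent prior. For miR-320-5p, the limit that a listed 0 allows in control library 1 (4.06) is close to its highest value (5.53).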
